A study of Homo sapiens with 6 samples.

Results

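The unfolded protein and integrated stress response was examined in cells of the established human glioma line U251 as 40 genes of the 16832 gene symbols measured. The genes were selected by symbol in 2 arms: 19 genes of the ATF4 arm (ATF4, its targets, and enzymes of serine and one-carbon metabolism) and 21 genes of the ER arm (sensors, chaperones and degradation factors of the endoplasmic reticulum, ER). All 40 were listed in every library and all 40 passed the filter on low values, which asked that 3 or more of the 6 libraries reach an FPKM of 1. RNA sequencing was done on 3 libraries of U251 cells given SLCDS, a mixture of small molecules whose parts the labels do not name, for 18 days, and on 3 control libraries of U251 cells given PBS. Both groups have the same genotype, written as WT in the labels, and the labels name no batch and no culture time for the control. Values are the authors' FPKM (fragment counts per length of transcript and per depth of library), so levels can be set side by side between genes only roughly. Control replicate 3 departed from the other controls with transcript length and GC content, as described below. Nothing says that the 3 libraries of a group came from separate cultures, so the p-values measure the spread between these libraries, which may be technical. With whole-culture RNA, fewer cells of a kind and less RNA per cell cannot be told apart.

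The unfolded protein response begins with sensors in the ER membrane. ERN1 (IRE1) splices the XBP1 transcript, ATF6 is cut to release a transcription factor, and EIF2AK3 (PERK) phosphorylates the translation initiation factor eIF2, so that most translation falls while the ATF4 protein is made. Phosphorylation of eIF2 by other kinases, which sense for example a lack of amino acids, also raises ATF4 and is called the integrated stress response. ATF4 is regulated largely through translation, which RNA sequencing does not measure, whereas XBP1 and ATF6 act mainly on genes of ER folding and degradation.

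Some promoters of the arms hold matches to the DNA elements through which these factors are known to act. Windows from 250 bases before to 50 bases after annotated starts (RefSeq, GRCh38.p14) were matched by symbol for 36 of the 40 genes, all but ALDH1L2, PDIA3, PSPH and SHMT2. A gene can have several windows, and it was counted as holding an element if any of them matched. The C/EBP-ATF response element, searched as TGATGNAA on both strands, was found in 5 of 16 genes of the ATF4 arm (31.2%) and in 1 of 20 of the ER arm (5%), HERPUD1, against 2.77% of the 9425 tested genes with a window. The ER stress element, searched on both strands as CCAAT followed after 9 bases by CCACG, was found in 7 of 20 genes of the ER arm (35%) and in none of the 16 of the ATF4 arm, against 0.159% of the 9425 tested genes with a window. The unfolded protein response element TGACGTGG was found in HYOU1 alone among the 36, against 1.24% of those 9425 genes. The 3 elements differ in length, so they differ in how often they occur by composition alone, and a match is a match of letters, not a site shown to be bound.

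The stretches of 30 bases below show the 5 matches of the C/EBP-ATF response element in the ATF4 arm and the match in HERPUD1, because ATF4 is known to act through this element; capitals mark the element, and each stretch reads 5′ to 3′ on the strand of its gene.
ATF3, chr1:212565205-212565234, plus strand: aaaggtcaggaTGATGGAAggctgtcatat
CEBPG, chr19:33374060-33374089, plus strand: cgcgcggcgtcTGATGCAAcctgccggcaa
ASNS, chr7:97872458-97872487, minus strand: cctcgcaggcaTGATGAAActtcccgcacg
CHAC1, chr15:40953251-40953280, plus strand, element on the other strand: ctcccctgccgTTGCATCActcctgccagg
PPP1R15B, chr1:204412026-204412055, minus strand: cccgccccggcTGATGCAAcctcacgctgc
HERPUD1, chr16:56931955-56931984, plus strand, element on the other strand: gacgcggcgggTTGCATCAgcccgtgccca

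The ER stress element stood in the promoters of the following ER arm genes, shown in the same way with the 19-base element in capitals. HSP90B1 held it on each strand.
HSPA5, chr9:125241385-125241414, minus strand: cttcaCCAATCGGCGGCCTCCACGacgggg
HSP90B1, chr12:103930211-103930240, plus strand: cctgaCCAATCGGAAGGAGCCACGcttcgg
HSP90B1, chr12:103930316-103930345, plus strand, element on the other strand: gggtgCGTGGTGCGGCGCGATTGGtgggtt
CALR, chr19:12938379-12938408, plus strand, element on the other strand: ccacgCGTGGTCGACCATCATTGGtcggtg
CANX, chr5:179698773-179698802, plus strand: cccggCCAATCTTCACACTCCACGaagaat
XBP1, chr22:28800597-28800626, minus strand: gctggCCAATCGCGGAGGGCCACGaccgta
PDIA6, chr2:10812847-10812876, minus strand: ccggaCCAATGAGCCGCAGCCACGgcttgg
CRELD2, chr22:49918549-49918578, plus strand, element on the other strand: cctctCGTGGCGAACTCGGATTGGgccata

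The 250 bases before an annotated start of 1 gene of each arm are given for context, with the same elements in capitals: ATF3, which rose, at chr1:212565157-212565406 on the plus strand, and HSPA5, the main ER chaperone gene, at chr9:125241344-125241593 on the minus strand. Windows without a match were not printed, and whether these starts are used in U251 cells was not tested.
ATF3: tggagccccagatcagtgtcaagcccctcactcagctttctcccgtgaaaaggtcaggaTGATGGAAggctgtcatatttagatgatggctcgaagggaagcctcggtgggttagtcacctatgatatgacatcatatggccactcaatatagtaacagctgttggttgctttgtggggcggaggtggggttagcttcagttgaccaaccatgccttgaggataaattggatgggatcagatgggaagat
HSPA5: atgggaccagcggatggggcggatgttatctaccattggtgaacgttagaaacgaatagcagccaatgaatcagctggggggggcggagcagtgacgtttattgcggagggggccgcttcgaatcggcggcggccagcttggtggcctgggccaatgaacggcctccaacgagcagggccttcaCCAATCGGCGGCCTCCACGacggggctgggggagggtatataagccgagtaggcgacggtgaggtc

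The libraries were of like depth but control replicate 3 stood apart. As judged from the steps in low FPKM values, a library held about 16300000 to 17200000 fragments, at which the least covered value of the 40 genes, ALDH1L2 in control replicate 3, rests on about 70 fragments and that of ATF3 on about 96. Pearson's r across tested genes, which are not independent, was 0.9966 to 0.997 among the SLCDS libraries and 0.9969 between control replicates 1 and 2, against 0.9765 and 0.9767 between control replicate 3 and the other controls. The glioma and neural markers GFAP, VIM, NES, SOX2 and S100B summed to 2277 to 2361 FPKM in SLCDS and 2318 to 2757 FPKM in control. VIM made up most of this sum, with 1524 ± 39.7 FPKM in SLCDS and 1507 ± 191 FPKM in control, while GFAP fell to 135 ± 7.31 FPKM in SLCDS, against 339 ± 23.3 FPKM in control (SD, n = 3 each; log2 fold change -1.32; limma, adjusted p = 0.000596). Of the marker lists of other cell types, microglia and macrophage markers (5 genes) summed to 3.79 to 4.97 FPKM in SLCDS and 3.06 to 3.51 FPKM in control, and epithelial markers (4 of 5 listed) to 4.11 to 7.12 and 3.40 to 6.43 FPKM. Endothelial markers (5 genes) summed to 4.94 to 5.88 FPKM in SLCDS and 2.12 to 3.00 FPKM in control, where CDH5, the single one tested, rose by 1.02 on the log2 scale (limma, adjusted p = 0.0106), and erythroid markers (5 genes) to 0.0854 to 30.1 FPKM and 0.0601 to 6.73 FPKM. Fibroblast markers (5 genes) summed to 385 to 393 FPKM in SLCDS and 390 to 411 FPKM in control. No listed marker was at 0 in all libraries, and the part of these cell types in the results was not tested.

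In cells given SLCDS, genes of the ATF4 arm rose while no gene of the ER arm passed the test. Of the 19 ATF4 arm genes 6 rose, none fell and 13 did not pass at an adjusted p under 0.05 (limma on log2(FPKM + 1), Benjamini-Hochberg over all 11506 tested genes). The 6 were TRIB3, ALDH1L2, PPP1R15A, ATF3, MTHFD2 and CEBPG. ALDH1L2 met the filter on low values through its SLCDS libraries alone, with all controls under 1 FPKM, so its call is not independent of the filter, and 5 of the other 18 genes rose. In the ER arm none of 21 rose and none fell by limma. Over all tested genes 6.09% passed, 4.28% higher and 1.82% lower. At an unadjusted p under 0.05 limma gave 4 higher and none lower in the ER arm, and 10 higher and 1 lower in the ATF4 arm. The share of all tested genes at that unadjusted threshold was not counted. The median log2 fold change was 0.27 in the ATF4 arm and 0.14 in the ER arm, beside 0.00 over all tested genes, and each arm held 17 genes with a value above 0, as did 50.1% of tested genes. The difference between the arms was not given a test of its own.

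Both counts depended on control replicate 3. Without that library 16 of 19 ATF4 arm genes were higher and 1 was lower, and 11 of 21 ER arm genes were higher and none lower, where 27.7% of all tested genes passed, 16% higher and 11.8% lower. The medians were then 0.35 in the ATF4 arm, 0.14 in the ER arm and 0.00 over all tested genes. The 16 include ALDH1L2, whose call is not independent of the filter. Of the 28 genes called in that fit, 27 had their lowest adjusted p of all alternatives there, and the highest ranged from 0.0724 to 0.996 by gene. With SLCDS replicate 1, 2 or 3 left out, no gene of either arm passed, where 2.4%, 2.44% and 2.49% of tested genes did. At an unadjusted p under 0.05 limma gave 8 to 9 higher ATF4 arm genes and 2 higher ER arm genes in these fits. The share of all tested genes at that unadjusted threshold was not counted, so these counts have no background beside them. With control replicate 1 or 2 left out no gene passed but ALDH1L2, the gene admitted through its SLCDS libraries alone, where 3.58% and 3.62% of tested genes did. The 6 risers kept their direction in all of these fits.

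**Figure D1:**
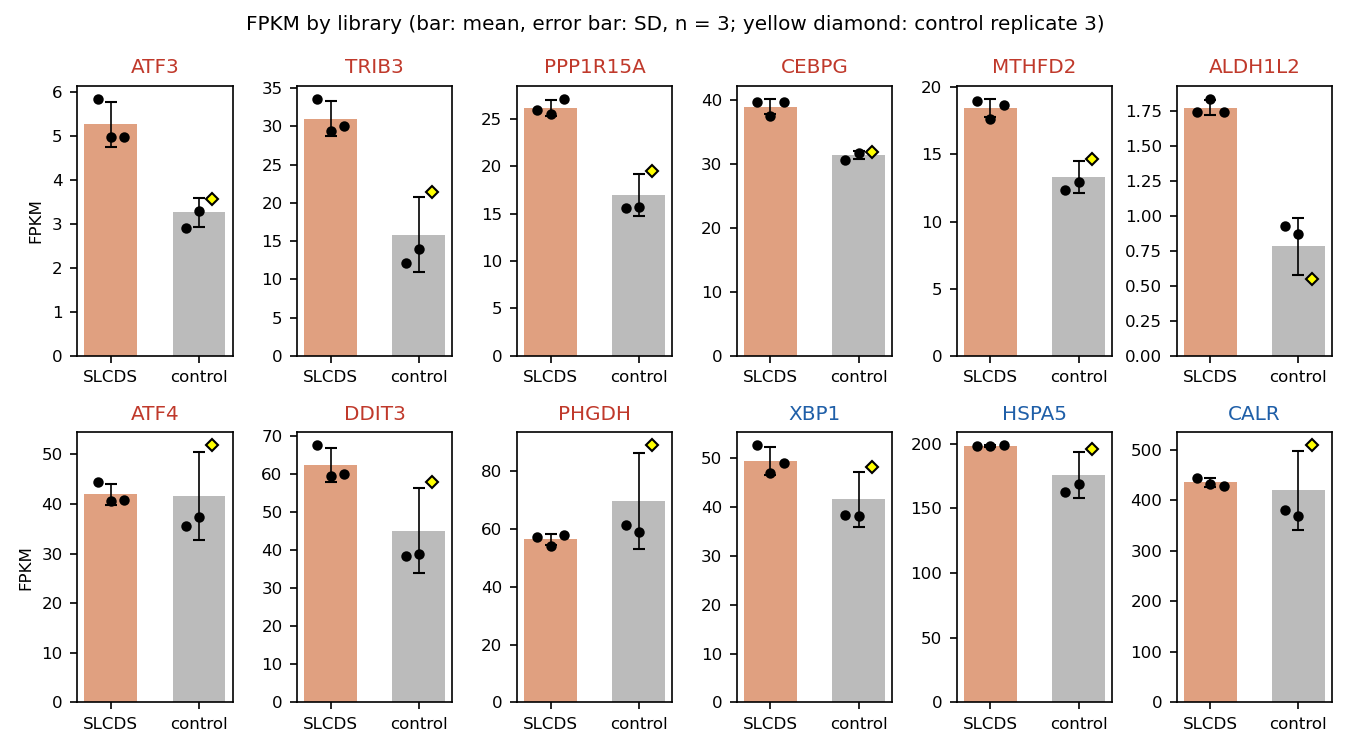
FPKM of 12 stress response genes in each library, SLCDS at the left and control at the right of each panel, with bars for the mean, error bars for the SD (n = 3) and a yellow diamond for control replicate 3; gene names are red for the ATF4 arm and blue for the ER arm. The SLCDS points of the 6 genes of the top row lie above all control points, which the filter fixed for ALDH1L2. Control replicate 3 lies above the SLCDS points of ATF4, PHGDH and CALR.

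Of the 6 transcription factors of the ATF4 arm, ATF3 and CEBPG rose and ATF4, ATF5, DDIT3 and CEBPB did not pass. ATF4 stood at 44.4, 40.7 and 40.7 FPKM in SLCDS replicates 1 to 3, against 35.7, 37.5 and 51.8 FPKM in control replicates 1 to 3. The SLCDS values lay within the control range, and the log2 fold change was 0.03 with an SE of 0.14 (limma, adjusted p = 0.941). Without control replicate 3 ATF4 was higher in SLCDS by 0.19 (limma, adjusted p = 0.0185). ATF3, a stress-induced factor of the same family, had 5.85, 4.97 and 4.98 FPKM in SLCDS, against 2.91, 3.30 and 3.58 FPKM in control. Every SLCDS library lay above every control library, and ATF3 rose by 0.56 with an SE of 0.096 (limma, adjusted p = 0.0181).

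CEBPG, which encodes a dimer partner of ATF4, had 39.7, 37.6 and 39.6 FPKM in SLCDS and 30.6, 31.8 and 31.9 FPKM in control. Control replicate 3 lay with the other controls here, and CEBPG rose by 0.30 with an SE of 0.064 (limma, adjusted p = 0.0377). DDIT3, which encodes CHOP, a factor linked to cell death under lasting stress, had 67.5, 59.5 and 60.0 FPKM in SLCDS, against 38.4, 39.1 and 57.9 FPKM in control. The groups did not overlap, but control replicate 3 came within a few FPKM of SLCDS, and DDIT3 did not pass (log2 fold change 0.48, SE 0.159; limma, adjusted p = 0.157). With that library left out its change was 0.67 (limma, adjusted p = 2.03e-05). ATF5 had 14.5, 13.5 and 14.6 FPKM in SLCDS and 7.68, 7.47 and 11.8 FPKM in control, again with no overlap and again short of the threshold (log2 fold change 0.64; limma, adjusted p = 0.0668). CEBPB had 79.1, 72.4 and 77.0 FPKM in SLCDS, against 61.7, 56.4 and 87.5 FPKM in control, so that control replicate 3 was the highest library (log2 fold change 0.17; limma, adjusted p = 0.631). Leaving it out, ATF5 was higher by 0.83 and CEBPB by 0.36 (limma, adjusted p = 5.69e-06 and 0.000715).

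Of the feedback and effector genes, TRIB3 and PPP1R15A rose. TRIB3, a pseudokinase gene induced by ATF4 and CHOP, had 33.6, 29.4 and 30.0 FPKM in SLCDS, against 12.2, 14.0 and 21.4 FPKM in control. Every SLCDS library lay above every control library, control replicate 3 being the highest control. The mean was 31.0 ± 2.26 FPKM in SLCDS and 15.8 ± 4.88 FPKM in control (SD, n = 3 each; log2 fold change 0.96, SE 0.187; limma, adjusted p = 0.0269). No other gene of the 40 had as large a log2 fold change of FPKM + 1. By the ratio of mean FPKM, ALDH1L2 stood higher, at 2.27 against 1.96 for TRIB3. PPP1R15A encodes GADD34, which brings a phosphatase to eIF2 and so restores translation. It had 25.9, 25.5 and 27.1 FPKM in SLCDS and 15.6, 15.7 and 19.5 FPKM in control, a rise of 0.61 with an SE of 0.097 (limma, adjusted p = 0.0135). PPP1R15B, its constitutive counterpart, had 20.4 to 21.7 FPKM in SLCDS and 14.6 to 20.0 FPKM in control, with the lowest value in control replicate 3, and did not pass with or without that library (limma, adjusted p = 0.431 and 0.296).

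The remaining effectors did not pass over all libraries. DDIT4, an inhibitor of mTORC1, had 208, 186 and 197 FPKM in SLCDS, against 143, 148 and 203 FPKM in control (log2 fold change 0.27; limma, adjusted p = 0.374). SESN2, another inhibitor of mTORC1, had 20.8, 20.1 and 19.8 FPKM in SLCDS, against 16.8, 16.1 and 19.3 FPKM in control (log2 fold change 0.21; limma, adjusted p = 0.234). CHAC1, a glutathione-degrading enzyme, had 15.6, 13.4 and 14.8 FPKM in SLCDS, against 10.2, 12.3 and 17.3 FPKM in control (log2 fold change 0.16; limma, adjusted p = 0.699). In all 3 genes control replicate 3 was the highest control, and above all SLCDS libraries in CHAC1. Without it they were higher by 0.43, 0.28 and 0.35 (limma, adjusted p = 0.000153, 0.00185 and 0.0106).

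**Figure D2:**
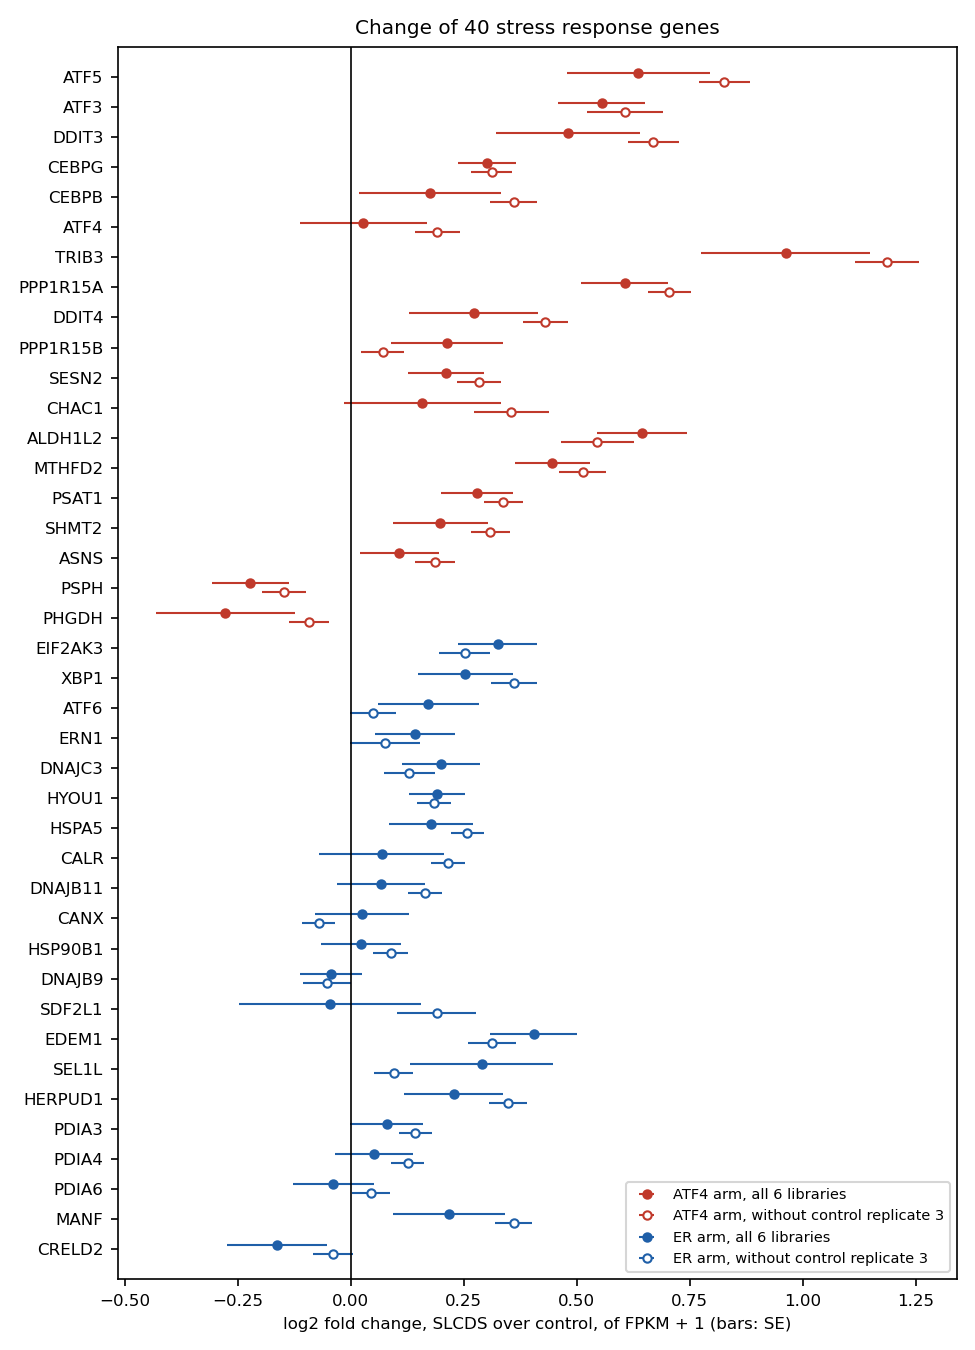
Log2 fold change of SLCDS over control on the log2(FPKM + 1) scale with its SE for each of the 40 genes, grouped by role, over all 6 libraries (filled) and without control replicate 3 (open); red is the ATF4 arm and blue the ER arm. TRIB3 is farthest to the right in both fits, PHGDH and PSPH lie left of 0, and the ER arm lies between -0.16 and 0.41 over all libraries.

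Of the 7 enzymes of amino acid, serine and one-carbon metabolism, MTHFD2 and ALDH1L2 rose and 5 did not pass. PHGDH and PSPH, of the opening and closing steps of serine synthesis, had log2 fold changes of -0.28 and -0.22. MTHFD2, the methylenetetrahydrofolate dehydrogenase of mitochondria, had 19.0, 17.7 and 18.7 FPKM in SLCDS, against 12.3, 12.9 and 14.7 FPKM in control, and rose by 0.45 with an SE of 0.083 (limma, adjusted p = 0.0235). ALDH1L2, the mitochondrial formyltetrahydrofolate dehydrogenase, had 1.74, 1.84 and 1.74 FPKM in SLCDS, against 0.929, 0.870 and 0.549 FPKM in control. All controls lay under the filter value of 1 FPKM and all SLCDS libraries above it, so a gene admitted in this way had to differ. Its ratio of mean FPKM was 2.27 and its log2 fold change 0.64 with an SE of 0.1 (limma, adjusted p = 0.0118). It was the least abundant of the 40, at the percentile 3.3 of tested genes, and control replicate 3 was its lowest library. SHMT2, the mitochondrial serine hydroxymethyltransferase, had 62.9, 58.6 and 61.2 FPKM in SLCDS, against 49.4, 48.5 and 61.9 FPKM in control (log2 fold change 0.20; limma, adjusted p = 0.383).

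In serine synthesis itself, PHGDH, which catalyses the committed step, had 57.1, 54.2 and 57.9 FPKM in SLCDS, against 61.3, 58.9 and 88.9 FPKM in control. All SLCDS libraries lay below all controls, by little for control replicates 1 and 2, and PHGDH did not pass with or without control replicate 3 (log2 fold change -0.28 and -0.09; limma, adjusted p = 0.406 and 0.15). PSPH, the phosphatase of the last step, had 24.0, 22.9 and 24.4 FPKM in SLCDS and 25.7, 27.2 and 31.0 FPKM in control (log2 fold change -0.22; limma, adjusted p = 0.219). PSAT1, the aminotransferase between them, went the other way, with 73.6, 68.0 and 71.2 FPKM in SLCDS, against 55.4, 56.4 and 63.1 FPKM in control, with no overlap (log2 fold change 0.28; limma, adjusted p = 0.0992). ASNS, asparagine synthetase, had 52.2, 48.3 and 50.6 FPKM in SLCDS, against 43.3, 44.9 and 52.1 FPKM in control (log2 fold change 0.11; limma, adjusted p = 0.594). Leaving out control replicate 3, PSAT1, SHMT2 and ASNS were higher by 0.34, 0.31 and 0.19 (limma, adjusted p = 0.000372, 0.000585 and 0.0131), and PSPH was lower, with a log2 fold change of -0.15 (limma, adjusted p = 0.0468).

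In the ER arm the sensors and XBP1 did not pass over all libraries. EIF2AK3 (PERK) had 11.0, 10.2 and 11.0 FPKM in SLCDS, against 8.83, 8.86 and 7.46 FPKM in control, with no overlap (log2 fold change 0.33, SE 0.088; limma, adjusted p = 0.0871). XBP1 had 52.6, 47.0 and 48.9 FPKM in SLCDS, against 38.4, 38.2 and 48.1 FPKM in control, where SLCDS replicate 2 fell below control replicate 3 (log2 fold change 0.25; limma, adjusted p = 0.258). Gene-level FPKM do not separate the spliced from the unspliced XBP1 transcript. In the fit without control replicate 3, EIF2AK3 was higher by 0.25 and XBP1 by 0.36 (limma, adjusted p = 0.00913 and 0.000621). ERN1 (IRE1) stood at 2.48, 2.52 and 2.66 FPKM in SLCDS and 2.52, 2.23 and 1.93 FPKM in control. ATF6 stood at 13.6, 13.7 and 13.0 FPKM in SLCDS and 12.8, 13.2 and 9.82 FPKM in control. Their groups overlapped, also without control replicate 3, and neither passed in either fit (limma, adjusted p = 0.47 and 0.489 over all libraries).

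The ER chaperones include the most abundant of the 40 genes and differed little. HSPA5 (BiP), the Hsp70 chaperone that binds the sensors at rest, had 198, 198 and 199 FPKM in SLCDS, against 162, 169 and 196 FPKM in control. The SLCDS libraries were close to each other and control replicate 3 just below them (log2 fold change 0.18, SE 0.093; limma, adjusted p = 0.377). HSP90B1 (GRP94) had 221, 209 and 217 FPKM in SLCDS and 204, 201 and 232 FPKM in control (log2 fold change 0.02; limma, adjusted p = 0.921). The lectin CALR, the most abundant of the 40, had 444, 433 and 429 FPKM in SLCDS and 381, 368 and 509 FPKM in control (log2 fold change 0.07; limma, adjusted p = 0.845). HYOU1, a nucleotide exchange factor for BiP, had 65.9, 65.5 and 67.1 FPKM in SLCDS, against 57.4, 58.7 and 57.3 FPKM in control. Its groups did not overlap and control replicate 3 lay with the other controls (log2 fold change 0.19, SE 0.062; limma, adjusted p = 0.149).

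DNAJB11, a BiP co-chaperone, had 97.9, 95.5 and 98.9 FPKM in SLCDS, against 87.2, 86.4 and 107 FPKM in control (log2 fold change 0.07; limma, adjusted p = 0.779). DNAJB9, a BiP co-chaperone and known target of spliced XBP1, stood at 23.3, 24.0 and 26.0 FPKM in SLCDS and 25.5, 25.2 and 24.9 FPKM in control (log2 fold change -0.04; limma, adjusted p = 0.804), and the groups overlapped also without control replicate 3. DNAJC3, SDF2L1 and CANX did not pass in either fit, with log2 fold changes of 0.20, -0.04 and 0.03 over all libraries and 0.13, 0.19 and -0.07 without control replicate 3. Of the 9 chaperones, co-chaperones and lectins 4 were higher without that library, beside 16% of all tested genes, namely HSPA5 (log2 fold change 0.26), CALR (0.21), HYOU1 (0.18) and DNAJB11 (0.17; limma, adjusted p = 0.00901).

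The disulfide isomerases, which form and reshuffle disulfide bonds, differed little. PDIA3 had 111 FPKM in each SLCDS library, against 99.0, 102 and 115 FPKM in control, and PDIA4 had 124, 125 and 125 FPKM, against 112, 115 and 133 FPKM. In both genes the SLCDS libraries lay between control replicates 1 and 2 and control replicate 3. Their log2 fold changes were 0.08 and 0.05 over all libraries and 0.14 and 0.13 without control replicate 3 (limma, adjusted p = 0.016 and 0.0269 in the fit without it), and PDIA6 did not pass in either.

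Among genes of ER-associated degradation, EDEM1, which hands misfolded glycoproteins to degradation, came closest to the threshold in this arm. It had 14.3, 15.1 and 15.2 FPKM in SLCDS, against 11.5, 12.1 and 9.55 FPKM in control, and the groups did not overlap (log2 fold change 0.41, SE 0.096; limma, adjusted p = 0.0558). HERPUD1, a ubiquitin-like scaffold protein of the degradation complex, had 55.5, 53.2 and 54.2 FPKM in SLCDS, against 41.5, 43.5 and 54.8 FPKM in control (log2 fold change 0.23; limma, adjusted p = 0.333). SEL1L, the adaptor of the ligase HRD1, had 24.1 to 24.5 FPKM in SLCDS and 14.8 to 23.2 FPKM in control, the lowest in control replicate 3 (log2 fold change 0.29; limma, adjusted p = 0.397). The secreted ER stress protein MANF had 61.9, 60.5 and 60.9 FPKM in SLCDS and 48.7, 46.1 and 64.2 FPKM in control (log2 fold change 0.22; limma, adjusted p = 0.424). CRELD2 had 19.8 to 20.6 FPKM in SLCDS and 20.6 to 27.2 FPKM in control (log2 fold change -0.16; limma, adjusted p = 0.511). In the fit without control replicate 3, EDEM1, HERPUD1 and MANF were higher by 0.31, 0.35 and 0.36 (limma, adjusted p = 0.00199, 0.000239 and 0.000161), and SEL1L and CRELD2 did not pass.

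**Figure D3:**
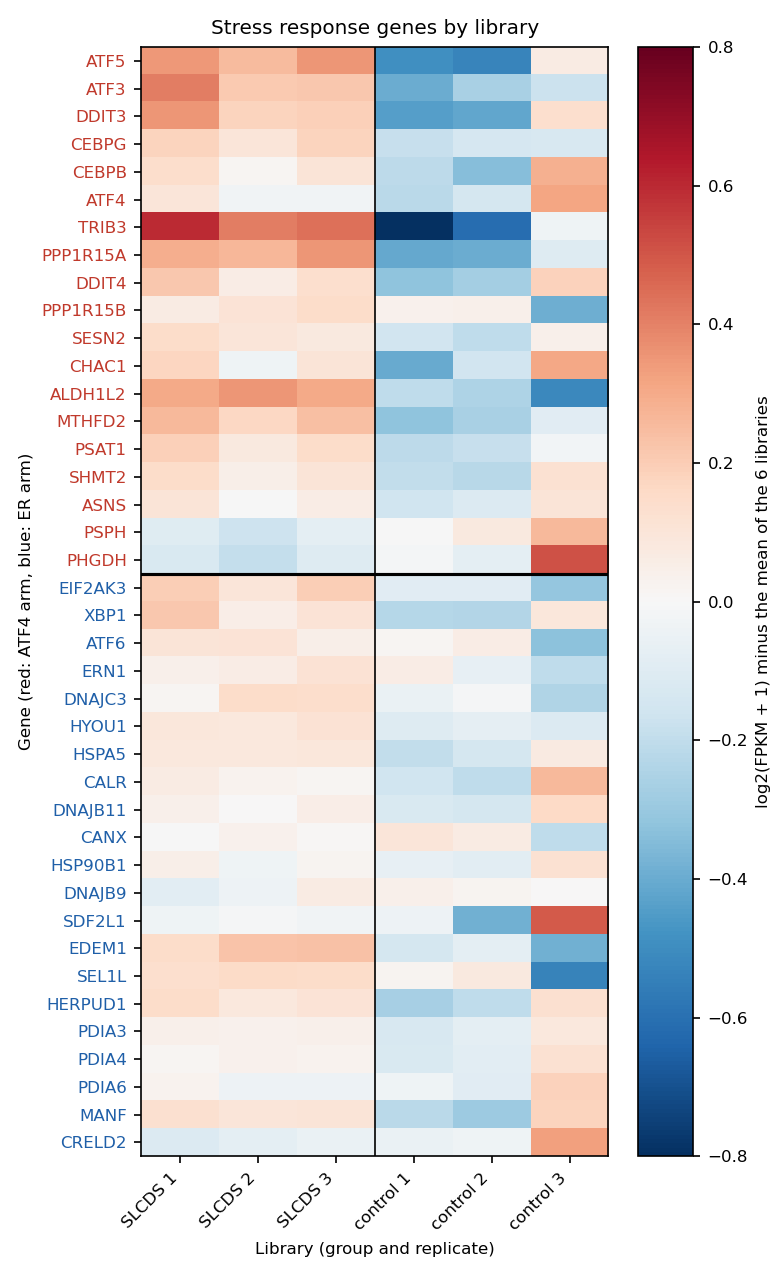
Log2(FPKM + 1) minus the mean of the 6 libraries for the 40 genes (rows, ATF4 arm above the line and ER arm under it) in each library (columns, SLCDS left and control right). Most rows are lower in control replicates 1 and 2 than in SLCDS, and control replicate 3 departs from both in either direction.

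The arms can be read library by library. Relative to the mean of the 3 controls, the median gene of the ATF4 arm stood at 0.33, 0.21 and 0.27 on the log2 scale in SLCDS replicates 1 to 3 and at -0.11, -0.09 and 0.20 in control replicates 1 to 3. The same median in the ER arm was 0.11, 0.13 and 0.13 in SLCDS and -0.06, -0.05 and 0.13 in control. On this reference control replicate 3 stood level with SLCDS in the ER arm and just under it in the ATF4 arm. Over all tested genes these medians lay between -0.004 and 0.011. Relative to control replicates 1 and 2 alone, control replicate 3 stood at 0.197 in the ER arm, above the SLCDS libraries (0.14 to 0.168). In the ATF4 arm it then stood at 0.299, within the SLCDS range of 0.279 to 0.415. Groups did not overlap for 11 ATF4 arm genes in the higher and 2 in the lower direction, and for 6 ER arm genes in the higher and 1 in the lower, against 15.5% and 13.6% of all tested genes. ALDH1L2 is among the 11, and its groups could not overlap, as it met the filter through its SLCDS libraries alone. Replicates varied less within SLCDS, where the median SD on the log2 scale was 0.056 in the ATF4 arm and 0.028 in the ER arm, than within control, where it was 0.193 and 0.163. Between control replicates 1 and 2 alone it was 0.037 and 0.031. All tested genes showed the same, with a median SD of 0.059 in SLCDS, 0.161 in control and 0.046 between control replicates 1 and 2.

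**Figure D4:**
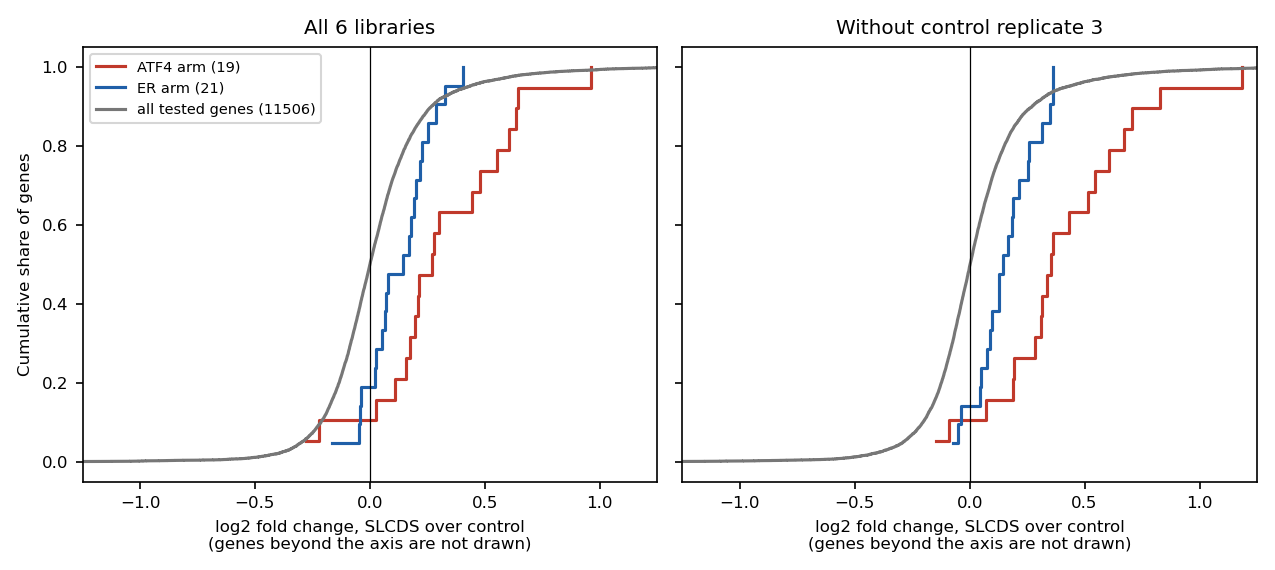
Cumulative share of genes by log2 fold change of SLCDS over control for the ATF4 arm (19 genes), the ER arm (21 genes) and all 11506 tested genes, over all 6 libraries (left) and without control replicate 3 (right). The ATF4 arm lies right of the ER arm over most of its range, with medians of 0.27 and 0.14 at the left and 0.35 and 0.14 at the right.

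The departure of control replicate 3 moved with transcript length and GC content. Over the 40 genes, the difference between control replicate 3 and the mean of control replicates 1 and 2 had a Pearson's r of -0.86 with log2 transcript length and 0.76 with GC content (rho -0.83 and 0.80), and over 11275 tested genes r was -0.72 and 0.54. These are correlations across genes of the same 3 libraries, given as a description. The median transcript was 2356 nucleotides long with 55.2% GC in the ATF4 arm and 2946 nucleotides with 46% GC in the ER arm, against 3469 nucleotides and 48.4% over all tested genes. Shorter members such as SDF2L1 (865 nucleotides, 0.71 higher in control replicate 3) and longer ones such as SEL1L (7925 nucleotides, -0.58) lay at the ends. With each library's trend with length and GC removed, 13 ATF4 arm genes were higher and 1, PSPH, was lower, and 6 ER arm genes were higher (XBP1, MANF, EDEM1, EIF2AK3, HYOU1 and SEL1L), where 17.5% of tested genes passed, 10.5% higher and 6.99% lower. The medians were then 0.27 in the ATF4 arm and 0.09 in the ER arm. The 13 include ALDH1L2, which met the filter through its SLCDS libraries alone.

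**Figure D5:**
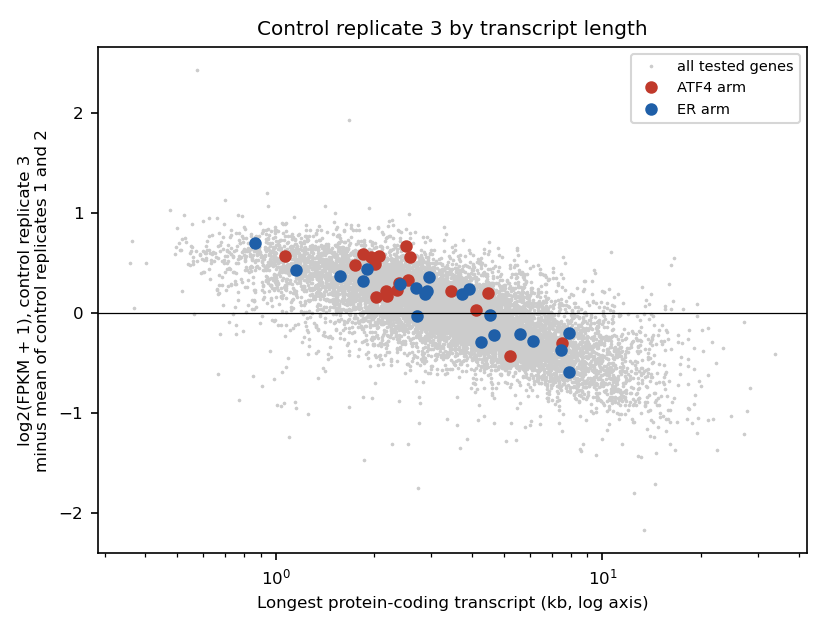
Log2(FPKM + 1) in control replicate 3 minus the mean of control replicates 1 and 2, against the length of the longest protein-coding transcript (log axis), for the ATF4 arm (red), the ER arm (blue) and all tested genes (grey). The values of the 40 genes fall with length, with a Pearson's r of -0.86.

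Calls can be set beside the promoter elements shown above. Of the 5 ATF4 arm genes with the C/EBP-ATF response element, ATF3 and CEBPG rose over all libraries, beside 4.28% of all tested genes. Without control replicate 3, 4 of the 5 were higher, all but PPP1R15B, beside 16% of all tested genes. Of the 11 ATF4 arm genes with a window but no such element, 3 rose over all libraries and 10 were higher without control replicate 3. Of the 7 ER arm genes with the ER stress element none passed over all libraries, with log2 fold changes from -0.16 (CRELD2) to 0.25 (XBP1). Without control replicate 3, 3 of these 7 were higher (XBP1, HSPA5 and CALR), as were 7 of the 13 ER arm genes with a window but no ER stress element. The risers TRIB3, PPP1R15A and MTHFD2 had windows without a match to any of the 3 elements.

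Other genes of these pathways were read from lists. Among 33 tested genes of the ATF4 and amino acid response outside the 40 (35 listed), 4 rose, none fell and 29 did not pass, beside 4.28% higher and 1.82% lower over all tested genes, and the median change was 0.18 on the log2 scale. GDF15, a secreted cytokine induced by ATF4 and CHOP, had 74.4, 66.7 and 69.5 FPKM in SLCDS, against 12.6, 14.1 and 23.2 FPKM in control (log2 fold change 2.06; limma, adjusted p = 0.00176), more than any of the 40 genes. The glutamine transporter SLC1A5 rose by 0.64, the secreted glycoprotein STC2 by 0.54 and the tryptophanyl-tRNA synthetase WARS1 by 0.48 (limma, adjusted p = 0.0332, 0.0112 and 0.0498). With control replicate 3 left out, 17 of the 33 were higher and 1 was lower, beside 16% and 11.8% of all tested genes. With any SLCDS library left out GDF15 alone passed, and with control replicate 1 or 2 left out GDF15 and STC2 did.

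Of 60 tested genes of ER translocation, folding and degradation outside the 40 (63 listed), 2 rose and none fell, a share close to the 4.28% higher over all tested genes, with a median of 0.05. They were KDELR3, a receptor that returns chaperones to the ER, with 22.6, 22.5 and 21.3 FPKM in SLCDS, against 15.6, 13.8 and 16.8 FPKM in control (log2 fold change 0.50; limma, adjusted p = 0.0175), and the disulfide isomerase TXNDC5 (0.37; limma, adjusted p = 0.029). Neither passed when any SLCDS library, control replicate 1 or control replicate 2 was left out. Without control replicate 3, 21 of the 60 were higher and 2 lower, beside 16% and 11.8% of all tested genes. None of the 12 eIF2 kinases and eIF2 and eIF2B subunits passed by limma, and their median change was -0.05. At an unadjusted p under 0.05 limma gave none higher and 1 lower, where the share of all tested genes was not counted. The most abundant of the 12 was EIF2AK1, with 59.6 ± 1.45 FPKM in SLCDS and 61.4 ± 1.30 FPKM in control. Next came EIF2B5, with 49.6 ± 1.80 FPKM in SLCDS and 57.7 ± 5.63 FPKM in control (SD, n = 3 each). EIF2B5 was lower once control replicate 3 was left out, and likewise once trends with length and GC were removed (limma, adjusted p = 0.0462 and 0.0309), the single call among the 12 in either fit.

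Of 16 tested heat shock genes of the cytosol none rose by limma and 1 fell, beside 4.28% higher and 1.82% lower over all tested genes. None was higher by limma at an unadjusted p under 0.05 either, where the share of all tested genes was not counted. The median change was -0.10 on the log2 scale. The small heat shock gene CRYAB, a single call outside the naming rule, had 7.35, 5.64 and 6.90 FPKM in SLCDS, against 16.8, 10.8 and 14.7 FPKM in control (log2 fold change -0.97; limma, adjusted p = 0.0152). The most abundant members, HSP90AB1 (458 ± 6.12 FPKM in SLCDS and 509 ± 37.7 FPKM in control) and HSPA8 (405 ± 8.19 and 429 ± 32.1 FPKM; SD, n = 3 each), did not pass. CRYAB did not pass when any SLCDS library was left out. Without control replicate 3, 1 of the 16 was higher and 3 were lower, beside 16% and 11.8% of all tested genes.

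Some of the 40 genes share sequence with other loci. In GENCODE release 29, 7 have annotated pseudogenes named by the gene symbol, the letter P and a number. They are MTHFD2 with 7, ATF4, ASNS and PSAT1 with 4 each, PDIA3 with 2, and PSPH and XBP1 with 1 each. Pseudogenes with other names were not searched, so more of the 40 may have them. For 18 of the 40, MTHFD2 and ALDH1L2 included, exons are overlapped by exons of a gene on the other strand, and for 5 by a gene on the same strand. How the authors counted such fragments, and whether by strand, is not given in the sources used here, so the values of these genes are less certain.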

How the data were processed

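Per the labels' protocols, RNA was extracted with TRIzol and the library kit was VAHTS Universal V6. The authors deposited 1 FPKM file per library, 6 in all, on a linear scale. Aligner, counter and annotation: not given in the sources used here. Mouse builds (GRCm38, mm10) stand in the submitters' processing notes, although the line and the gene symbols are human. Promoter coordinates are those of RefSeq on GRCh38.p14.

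Groups and replicate numbers came from sample titles. Depth was read from steps between low FPKM values: the values of 67.7% of 4095 low genes stood in whole-number ratios, with a tolerance of 0.004, and the scale came from 330 genes with a single transcript, 145 of which lay within a common window. Values were analysed as log2(FPKM + 1), a scale that understates the change of low genes, for the 11506 genes that reached an FPKM of 1 in 3 or more libraries. SLCDS was compared with control with limma 3.58.1 (R 4.3.3) with a variance trend, 2-sided, adjusted over all tested genes by Benjamini-Hochberg, and the procedure was tested on simulated data. The same genes were tested when a library was left out. For length and GC content the longest protein-coding transcript of GENCODE release 29 was used, and their trend was removed per library with splines of 4 degrees of freedom. Mitochondrially encoded genes are not listed, so their share could not be read.

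The members, the arms and the lists were chosen with earlier results of these data known. Values per library are given for members that passed over all libraries or without control replicate 3 and for 15 fixed members, and the others by range or change. Of other lists up to 4 called genes, or with fewer than 2 called the 2 most abundant, are named. Cell type markers are given as sums. Python 3.11.15 with numpy 2.4.6, pandas 2.3.3 and matplotlib 3.10.9 was used for the other steps.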

Additional observations from a re-analysis of the deposited data

How the results depend on the processing

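Counts of calls moved most with control replicate 3. When each library was left out in turn, 210 to 1838 of all tested genes were higher and 66 to 1353 lower. In the ATF4 arm 0 to 16 genes were higher and 0 to 1 lower, and in the ER arm 0 to 11 were higher and 0 lower; the highest counts were without control replicate 3. The medians stayed between 0.235 and 0.355 in the ATF4 arm and between 0.121 and 0.158 in the ER arm in these fits. With the length and GC trend removed, 1181 genes were higher and 788 lower, 13 and 1 in the ATF4 arm and 6 higher in the ER arm. ALDH1L2, which met the filter through its SLCDS libraries alone, is among these 13 and among the 16 above. Quantile normalization gave 518 higher and 326 lower genes, with 9 higher in the ATF4 arm and 2 higher in the ER arm. A mean FPKM of at least 5 left 196 higher and 128 lower genes. The cause of these shifts was not tested.

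With the replicate number as a replicate block, 3 ATF4 arm genes were higher (TRIB3, PPP1R15A and ALDH1L2) and none lower. ALDH1L2 met the filter through its SLCDS libraries alone, and 2 were higher without it. In this fit 346 of all tested genes were higher and 109 lower. The deviations of same-numbered libraries correlated at -0.33, 0.36 and 0.07. They were taken from group means, of which the control mean holds control replicate 3. These values therefore cannot tell whether the numbers pair the libraries. Of 717 single values of the 40 genes under 18 alternatives, 628 kept direction and side of the threshold, 44 passed newly, 32 no longer passed and 13 changed sign, none of the 13 past the threshold. By library left out, the log2 fold change ranged from -0.071 to 0.192 for ATF4, -0.001 to 0.355 for CHAC1, -0.014 to 0.089 for HSP90B1, -0.250 to 0.190 for SDF2L1, -0.094 to 0.045 for PDIA6, -0.017 to 0.215 for CALR and -0.071 to 0.081 for CANX. With the trend removed SDF2L1 was at 0.073 and CANX at -0.005, and with quantile normalization PDIA6 was at 0.031 and the heat shock gene HSPA8 at 0.083. The limma adjusted p over the alternatives ranged from 5.29e-06 to 0.0838 for PPP1R15A, from 2.56e-06 to 0.138 for TRIB3 and from 0.000803 to 0.0724 for ALDH1L2.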
